A study of Mus musculus with 10 samples.

Results

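The genes described here are 10 transcription factors that mark the identity of lung mesenchyme: Tbx2, Tbx4, Tbx5, Foxf1, Foxf2, Meox2, Osr1, Gata6, Twist1 and Prrx1. They were chosen by name from the 54532 genes of the deposited count table, and all 10 were found there and passed the filter on low counts, among 14360 genes tested. The libraries came from primary mouse lung fibroblasts cultured in medium with 10% fetal bovine serum and no added stimulus. There were 5 wild-type libraries and 5 labelled as knockout of Mrc2, an endocytic receptor that takes up collagen, and all 10 shared that medium. No knockout allele, strain, sex or age is stated in the labels used here. The study's title concerns fibroblast proliferation without Mrc2.

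Lung mesenchyme is patterned early in development by a small set of DNA-binding proteins. T-box factors (Tbx2, Tbx4, Tbx5) are expressed in the mesenchyme of the lung bud, where Tbx4 and Tbx5 act upstream of the growth signal Fgf10. Forkhead factors Foxf1 and Foxf2 respond to Hedgehog signals from the epithelium. The homeodomain factors Prrx1 and Meox2, the zinc finger factors Osr1 and Gata6 and the basic helix-loop-helix factor Twist1 are shared with the mesenchyme of other organs, and several of these genes stay on in adult fibroblasts.

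Gene-assigned reads amounted to 19603933 to 29944615 in a library. Mrc2 averaged 843 ± 176 CPM (reads scaled to library size, as counts-per-million) in the wild-type group against 242 ± 30.4 CPM in the knockout group (SD, n = 5 each), and the groups did not overlap. Fibroblast markers were abundant, with sums over 9 genes of 15791 to 27620 CPM among wild-type libraries and 22641 to 40509 CPM among knockout libraries, where 4 of 5 exceeded every wild-type sum. Of these 9 genes 6 were above 0 on the log2 scale (48.4% of all genes) and 0 passed by edgeR. The collagen gene Col3a1 had the lowest adjusted p (log2 difference 1.28, adjusted p = 0.243). Most of the sum was collagen, from Col3a1, Col1a1 (log2 difference 0.79) and Col1a2 (0.50). The other markers were divided, with Pdgfra at 0.41, Pdgfrb at 0.31, Thy1 at 0.07, Vim at -0.24, Dcn at -0.45 and Lum at -0.77. Of the markers of other cells, the 9 leukocyte genes reached sums of 2220 to 11024 CPM among wild-type libraries and 2640 to 5913 CPM among knockout libraries. Most of that sum was Lyz2 (log2 difference -0.62, edgeR adjusted p = 0.480). Of the 7 leukocyte genes tested, 1 was above 0 (48.4% of all genes) and 6 below, with a median of -0.23, and 0 passed by edgeR. Fcer1g, Cd68 and Tyrobp had log2 differences of -0.43, -0.31 and -0.23, and Ptprc, Adgre1 and Csf1r of -0.02, 0.04 and -0.0062. The sum of 9 mesothelial genes was 135 to 683 CPM for wild type, and 122 to 341 CPM for knockout, with the highest sum in wild-type replicate 4. Of these genes 1 was above 0 (48.4% of all genes) and 8 below, with a median log2 difference of -0.71, and 0 passed by edgeR. Msln had the lowest adjusted p (log2 difference -1.54, edgeR adjusted p = 0.354). Epithelial genes were divided: Epcam, Nkx2-1, Sftpc, Sftpb and Scgb1a1 had at most 4 reads in any library, and Foxj1 at most 10. Cdh1 had 8 to 31 reads and Ager 9 to 79 reads over the libraries, and Krt8 and Krt18 reached 615 and 596 reads. The whole list of 10 epithelial genes, keratins included, summed to 8.68 to 61.0 CPM in wild type, highest in replicate 4, against 8.91 to 22.05 CPM in knockout. The 8 endothelial genes summed to 6.75 to 16.4 CPM over the 10 libraries. In these bulk samples, fewer cells of a type and less RNA per cell cannot be told apart.

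All 10 factors were transcribed in the cultures, at levels that spanned a 114-fold range. Per gene length, Prrx1 stood highest with a median of 167 TPM (transcripts-per-million, reads scaled by gene length and library) over the 10 libraries, 1.99-fold above Osr1. Osr1 had a median of 83.8 TPM, Twist1 74.3 TPM and Foxf1 57.8 TPM. A middle group held Gata6 at 27.2 TPM and Foxf2 at 23.5 TPM. The T-box genes were lower, with medians of 15.04 TPM for Tbx5, 13.8 TPM for Tbx2 and 8.14 TPM for Tbx4. Meox2 was lowest, with a median of 1.47 TPM.

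Most steps in this order held within every library. Prrx1 lay above Osr1, Twist1 above Foxf1, Foxf1 above Gata6, Foxf2 above Tbx5 and Tbx2 above Tbx4 in 10 of 10 libraries. The other neighbours were not separated: Osr1 was above Twist1 in 6 of 10 libraries, Gata6 above Foxf2 in 7 of 10 and Tbx5 above Tbx2 in 6 of 10. Tbx4 lay above Meox2 in 9 of 10 libraries, the exception being knockout replicate 1.

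**Figure D1:**
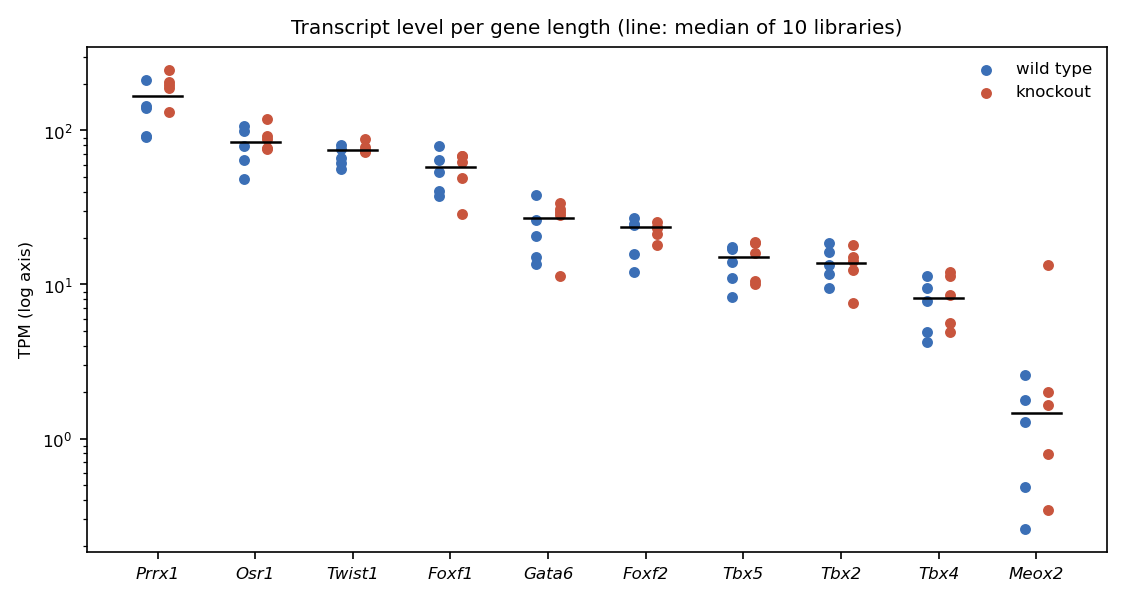
Level of each transcription factor per gene length (TPM, log axis) in 5 wild-type and 5 knockout libraries, with a line at the median of all 10. Prrx1 is highest at a median of 167 TPM and Meox2 lowest at 1.47 TPM, with 1 knockout library far above the other Meox2 values.

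None of the 10 factors passed the test between genotypes. By edgeR's quasi-likelihood test, 0 of 10 members had a Benjamini-Hochberg adjusted p under 0.05, where 0.0139% of all tested genes did. At an unadjusted p under 0.05, 1 member stood out, Prrx1, against 13.3% of all tested genes (7.19% higher and 6.10% lower in knockout), a share near the background. DESeq2 and limma-voom also called 0 members. The log2 fold change was above 0 for 8 of 10 members, against 48.4% of all tested genes, with a median of 0.12 (all genes -0.01). That count fell to 5 without wild-type replicate 5. In 0 of 10 members did the knockout and wild-type values fail to overlap, against 2.05% of all genes.

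**Figure D2:**
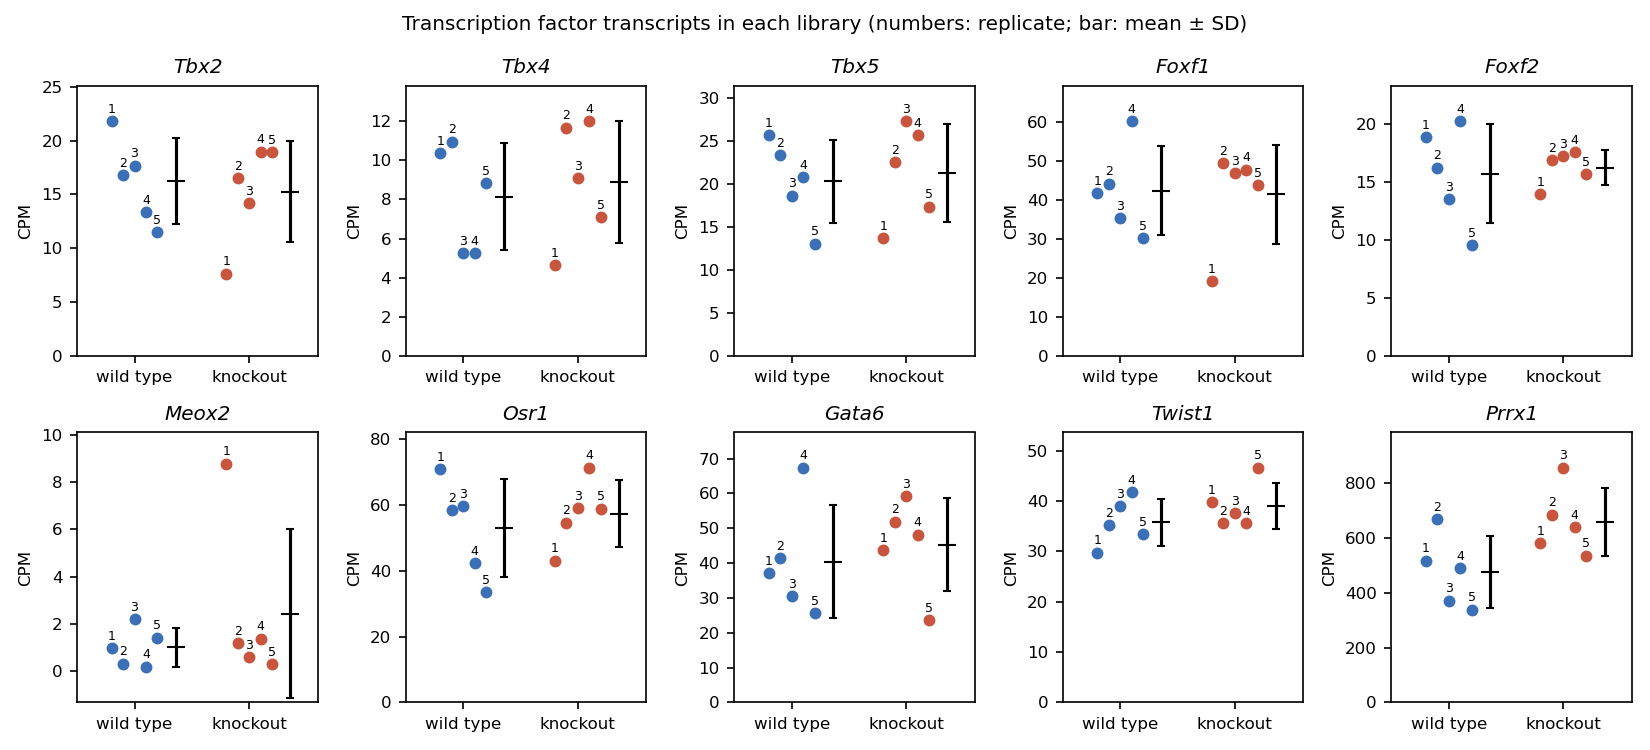
CPM of the 10 transcription factors in each library (points, numbered by replicate) with the group mean and SD beside them. Wild-type and knockout values overlap for all 10, and knockout replicate 1 is far from the other knockout libraries for Foxf1 (19.2 CPM) and Meox2 (8.77 CPM).

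None of the T-box factors Tbx2, Tbx4 and Tbx5 passed between genotypes, and the 95% interval of each included no change. Tbx2 (ENSMUSG00000000093) and Tbx4 (ENSMUSG00000000094) lie next to each other on mm10 chromosome 11, at 85832551 to 85841948 and 85886422 to 85916097 on the plus strand, 44.5 kb apart. Mrc2 is on the same chromosome, 19.4 Mb further along. Tbx2, a repressor that restrains cell cycle inhibitors in the embryonic lung, had 21.8, 16.8, 17.7, 13.4 and 11.5 CPM in wild-type replicates 1 to 5. Its knockout values were 7.64, 16.5, 14.2, 18.96 and 18.90 CPM. Knockout replicate 1 held the lowest value of all 10 libraries and the other 4 lay inside the wild-type range. Between genotypes the log2 fold change was -0.09 (SE 0.25, edgeR adjusted p = 0.879), a 0.938-fold level with a 95% interval of 0.645 to 1.37, and it turned to 0.07 without knockout replicate 1 and to 0.03 without wild-type replicate 1.

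Tbx4, an activator of the lung bud mesenchyme, ranged from 5.25 to 10.9 CPM in wild type and from 4.63 to 11.99 CPM in knockout. The ranges lay over each other, with a ratio of 1.09 between knockout and wild type (95% interval 0.696 to 1.71, edgeR adjusted p = 0.859). Tbx5 (ENSMUSG00000018263; chromosome 5, 119832668 to 119885219, plus strand), which acts with Tbx4, ranged from 13.1 to 25.7 CPM in wild type and from 13.7 to 27.3 CPM in knockout. Its knockout level was 1.05-fold that of wild type, with a 95% interval of 0.753 to 1.46 (edgeR adjusted p = 0.89995). The sign turned for Tbx4 without knockout replicate 4 and without wild-type replicate 4, and for Tbx5 without knockout replicates 3 or 4 or wild-type replicate 5.

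Foxf1 stood apart in a single knockout library. Foxf1 (ENSMUSG00000042812; chromosome 8, 121084386 to 121088144, plus strand), a forkhead factor needed for lung vessels and mesenchyme, had 41.7, 44.2, 35.3, 60.2 and 30.2 CPM in wild-type replicates 1 to 5. In knockout it had 19.2, 49.5, 46.9, 47.8 and 43.7 CPM. Replicate 1 of the knockout was the lowest of all 10 libraries, and the other 4 knockout values lay between 43.7 and 49.5 CPM. The log2 fold change was -0.03 (SE 0.25, edgeR adjusted p = 0.961), 0.15 without knockout replicate 1 and 0.12 without wild-type replicate 4. Foxf2 (ENSMUSG00000038402; chromosome 13, 31625816 to 31631403, plus strand), the related factor that also acts in gut mesenchyme, ranged from 9.59 to 20.3 CPM in wild type. Its 5 knockout values lay between 13.9 and 17.6 CPM, inside the wild-type range, and the ratio was 1.04 (95% interval 0.781 to 1.37, edgeR adjusted p = 0.916). Its sign turned without wild-type replicate 3 and without wild-type replicate 5.

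The long noncoding RNA gene Fendrr starts 1276 bases from Foxf1 and is transcribed away from it on the other strand. Fendrr had 10.8, 10.6, 7.66, 10.7 and 8.13 CPM in wild type. In knockout it had 3.97, 9.09, 3.98, 16.6 and 15.1 CPM, so its knockout values reached both below and above the wild-type range. Its log2 fold change was 0.02 (SE 0.38, edgeR adjusted p = 0.983), with a sign that turned under other settings. Fendrr was low in knockout replicate 1 as Foxf1 was, but also in knockout replicate 3, where Foxf1 was at 46.9 CPM.

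Upstream sequence from RefSeq (GRCm38.p6) is shown for 3 of the genes described here, each with a searched motif that it holds. Each stretch ends at the base before the start of the gene in the deposited coordinates. The RefSeq table held 5 of the 10 factors (Tbx4, Foxf2, Meox2, Twist1 and Prrx1) and Fendrr. The motifs searched were 6, each on both strands of a window from 250 bases before to 50 bases after the RefSeq start, and none of the matches overlapped another. The forkhead core was searched as GTAAACA. The homeodomain core was read as the letters TAATTA. For the TATA box the letters were TATAAA. The site of GATA factors was given by AGATAA. T-box factors were represented by their site GGTGTGA. The E-box bound by Twist factors was spelled CATATG. Capitals mark the match in each sequence. The Fendrr window holds 1 forkhead core, 129 bases before the start. The Prrx1 window holds 1 homeodomain core, 113 bases before the start in the deposited coordinates. That start lies upstream of the RefSeq start, so the Prrx1 stretch was cut to 190 bases. The Meox2 window holds 1 TATA box on the opposite strand, 29 bases before the start.
Fendrr, chr8:121083111-121083360, minus strand: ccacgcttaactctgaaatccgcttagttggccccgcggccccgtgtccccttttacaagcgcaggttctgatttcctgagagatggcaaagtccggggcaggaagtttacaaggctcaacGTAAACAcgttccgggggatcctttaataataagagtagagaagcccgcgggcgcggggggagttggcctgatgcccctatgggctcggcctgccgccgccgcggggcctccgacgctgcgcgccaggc
Prrx1, chr1:163313711-163313900, minus strand: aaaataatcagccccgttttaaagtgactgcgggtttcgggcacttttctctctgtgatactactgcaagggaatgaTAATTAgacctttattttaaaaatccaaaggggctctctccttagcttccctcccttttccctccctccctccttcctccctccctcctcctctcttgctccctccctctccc
Meox2, chr12:37108290-37108539, plus strand: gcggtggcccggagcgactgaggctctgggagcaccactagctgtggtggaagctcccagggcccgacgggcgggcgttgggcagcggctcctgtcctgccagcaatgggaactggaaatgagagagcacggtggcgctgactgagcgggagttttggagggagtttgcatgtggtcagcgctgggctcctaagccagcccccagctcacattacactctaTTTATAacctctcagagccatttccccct

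Of 32817 RefSeq windows of that length, 3.65% held the forkhead core, 5.3% the homeodomain core and 13.6% the TATA box. The GATA, T-box and Twist letters were in 11.2%, 3.98% and 3.92% of windows and in 0 of the 6 searched. The TATA box letters were also in the Tbx4 and Twist1 windows, which are not shown. The Foxf2 window, also not shown, held no match to any motif searched. These are matches of letters, and no binding was measured.

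Prrx1 showed the clearest difference of the 10 factors, and it did not pass. Prrx1 (ENSMUSG00000026586; chromosome 1, 163245119 to 163313710, minus strand), a paired-related homeodomain factor of limb, skull and fibroblast mesenchyme, had 516, 667, 371, 489 and 338 CPM in wild-type replicates 1 to 5. The knockout values were 579, 685, 855, 638 and 534 CPM. All 5 knockout libraries lay above the wild-type mean, and only wild-type replicate 2 reached into the knockout range. The group means were 476 ± 131 and 658 ± 124 CPM (SD, n = 5 in each group), a 1.38-fold ratio with a 95% interval of 1.03 to 1.86. On the log2 scale this was 0.47 (SE 0.20), with an unadjusted p = 0.0354 and an adjusted p = 0.355 by edgeR. The fibroblast marker sum, which was mostly collagen, was also above every wild-type sum in 4 of the 5 knockout libraries. Its part in the Prrx1 values was not tested. The Prrx1 difference stayed between 0.35 and 0.61 when single libraries were left out, and its unadjusted p exceeded 0.05 without knockout replicates 2, 3 or 4 or wild-type replicates 3, 4 or 5.

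Meox2 was low in 9 libraries and high in 1. Meox2 (ENSMUSG00000036144; chromosome 12, 37108540 to 37179534, plus strand), a homeodomain factor of muscle precursors, vessels and mesenchyme, had 21, 10, 41, 4 and 32 reads in wild type. In knockout it had 256, 35, 11, 29 and 6 reads. In CPM, knockout replicate 1 stood at 8.77 and the other 9 libraries between 0.192 and 2.20. The group means were 1.02 ± 0.823 and 2.44 ± 3.57 CPM, so the knockout SD exceeded its mean. Its 2.46-fold ratio (95% interval 0.654 to 9.26, edgeR adjusted p = 0.503) rested on that library, without which the log2 fold change was -0.22.

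The zinc finger factors overlapped between genotypes. Osr1 (ENSMUSG00000048387; chromosome 12, 9570116 to 9581500, plus strand), which marks early mesenchymal progenitors of lung, heart and kidney, ranged from 33.4 to 70.9 CPM in wild type and from 43.1 to 71.4 CPM in knockout. Its ratio was 1.08 (95% interval 0.801 to 1.47, edgeR adjusted p = 0.795), with a sign that turned without wild-type replicate 5. Gata6 (ENSMUSG00000005836; chromosome 18, 11052508 to 11085635, plus strand), a factor of mesenchyme, lung epithelium and mesothelium, had 37.2, 41.4, 30.5, 67.4 and 25.6 CPM in wild type. It had 43.6, 51.9, 59.1, 48.2 and 23.5 CPM in knockout. The highest Gata6 value was in wild-type replicate 4, which also had the highest mesothelial marker sum (683 CPM), and the part of those cells in it was not tested. The ratio of knockout to wild type was 1.12 (95% interval 0.733 to 1.71, edgeR adjusted p = 0.793), and the log2 fold change was 0.42 without wild-type replicate 4 against 0.16 with it.

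Twist1 was the steadiest of the 10 factors in wild type. Twist1 (ENSMUSG00000035799; chromosome 12, 33957671 to 33959829, plus strand), a basic helix-loop-helix factor of mesenchymal cells, had 29.7, 35.2, 38.9, 41.7 and 33.4 CPM in wild type. The knockout values were 39.8, 35.7, 37.5, 35.6 and 46.6 CPM. Its coefficient of variation was 13.1% in wild type and 11.7% in knockout, against 23.8% to 80.6% in wild type for the other 9 factors. In knockout, Foxf2 varied less, at 9.12%. For Twist1 the log2 difference was 0.13 (SE 0.12, edgeR adjusted p = 0.635), and its 95% interval in fold was 0.908 to 1.31.

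Single libraries held the extreme values of several members. Wild-type replicate 5 held the lowest value of 4 members (Foxf2, Osr1, Prrx1 and Tbx5), and knockout replicate 1 that of 3 members (Tbx2, Tbx4 and Foxf1). Wild-type replicate 4 had the highest value of 3 members (Foxf1, Foxf2 and Gata6). Wild-type replicate 5 also had the highest leukocyte marker sum (11024 CPM), and the part of those cells in its low values was not tested.

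**Figure D3:**
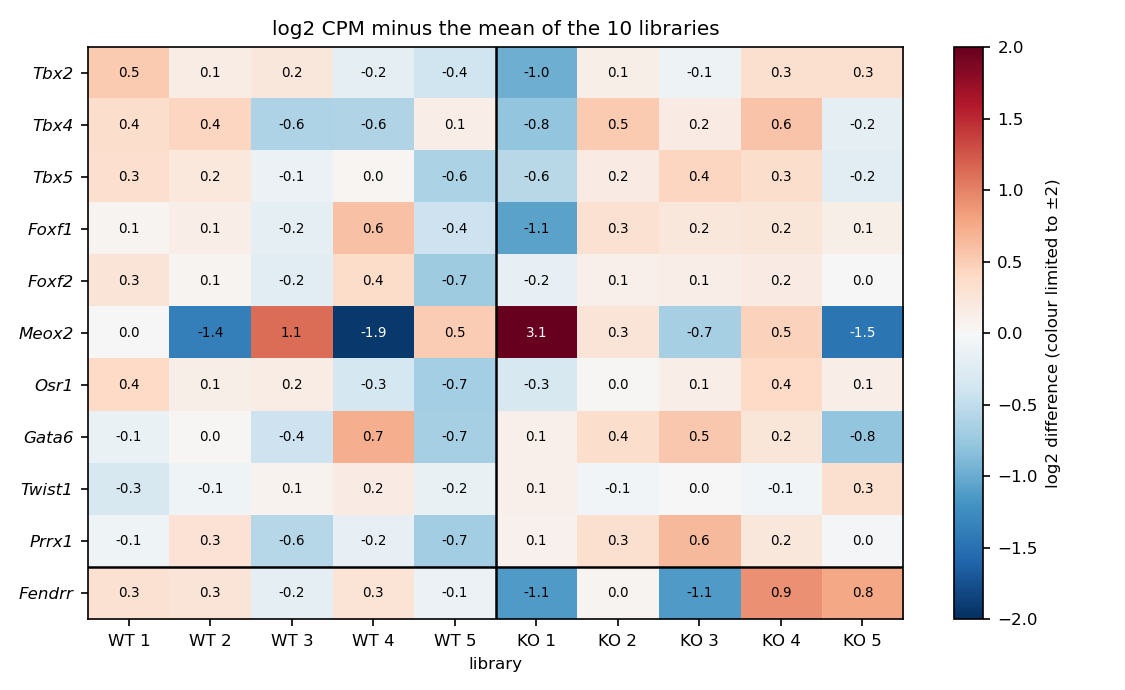
Log2 CPM of each factor and of Fendrr minus its mean over the 10 libraries (columns: wild type, then knockout, numbered by replicate). Knockout replicate 1 is low for Tbx2 (-0.98), Tbx4 (-0.79) and Foxf1 (-1.06) and high for Meox2 (3.07), and wild-type replicate 5 is low for Foxf2 (-0.71), Osr1 (-0.69) and Prrx1 (-0.70).

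Correlations of log2 CPM over the 10 libraries were computed for 46 pairs, the 45 pairs of members and Foxf1 with Fendrr. The lowest adjusted p was 0.108, so no pair passed in permutation tests. The libraries share their normalisation, and the genotypes were pooled. Foxf1 and Meox2 ran opposite to each other (Pearson r = -0.84, permutation p = 0.00374, adjusted p = 0.108; Spearman rho = -0.65, permutation p = 0.0492, adjusted p = 0.254). Without knockout replicate 1 and wild-type replicate 5, the 2 libraries farthest from the median of Foxf1, r was -0.60. Tbx2 and Osr1 ran together (r = 0.78, permutation p = 0.00786, adjusted p = 0.108; rho = 0.85, permutation p = 0.00284, adjusted p = 0.131), and r was 0.81 without the same 2 libraries. Tbx5 and Foxf2 also ran together (r = 0.79, permutation p = 0.00489, adjusted p = 0.108; rho = 0.72, permutation p = 0.0229, adjusted p = 0.254), with r = 0.50 after the 2 farthest libraries were left out. Tbx5 had the same adjusted p of 0.108 with Osr1 (r = 0.78, permutation p = 0.00965) and with Foxf1 (r = 0.74, permutation p = 0.0118). Their rho values were 0.67 and 0.59, and r fell to 0.40 and 0.21 without the 2 farthest libraries. For Foxf1 and its neighbour Fendrr, r was 0.55 (permutation p = 0.0941, adjusted p = 0.243) and rho 0.45 (permutation p = 0.191, adjusted p = 0.441), and r fell to 0.11 without the 2 farthest libraries. The related Foxf1 and Foxf2 had r = 0.67 (permutation p = 0.0524, adjusted p = 0.208) and rho = 0.75 (permutation p = 0.0168, adjusted p = 0.254), with r = 0.80 without the 2 farthest libraries.

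The genes most like each member over the 10 libraries were found by Pearson correlation of log2 CPM among 12166 genes (12167 for Meox2) whose average log2 CPM was 1 or more. These values are a description, since the highest of so many correlations over 10 libraries is large in any case. The closest to Prrx1 were Arnt2 (r = 0.96) and Cdyl2 (0.95), and the closest to Twist1 were Gm4617 (0.90) and Zfp626 (0.86). Sphk1 (0.94) and Pim3 (0.93) were closest to Tbx2, Adcy2 (0.94) and Unc13a (0.90) to Tbx4, and Resf1 (0.97) and Fads1 (0.96) to Tbx5. Gm36107 (0.93) and Fam110c (0.92) were closest to Foxf1, and F3 (0.92) and Rab40b (0.92) to Foxf2. Akap7 (0.91) and Palm (0.90) were closest to Osr1, Gm14325 (0.97) and Slc37a3 (0.94) to Gata6, and Pcdh19 (0.86) and Gm2115 (0.85) to Meox2.

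Several factors have a close relative in the genome, and the ratio of relatives within a library does not depend on the scaling between libraries. Of 8 pairs listed, 6 had both genes above the filter. Meox1 had 19 reads and Osr2 91 reads over all 10 libraries, too few to pass the filter, so no ratio was computed for Meox2 or Osr1. Prrx1 exceeded Prrx2 in CPM by 16.6-fold in wild type and 21.5-fold in knockout. Gata6 exceeded Gata4 by 5.00-fold and 6.43-fold, and Foxf1 exceeded Foxf2 by 2.70-fold and 2.42-fold. These are ratios of CPM that are not corrected for gene length, read here only between genotypes.

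No ratio of relatives passed between genotypes. Twist1 to Twist2, another helix-loop-helix factor of dermal and other mesenchyme, had log2 ratios of 1.03, 1.85, 1.24, 1.27 and 1.11 in wild type. In knockout they were 2.44, 2.01, 2.23, 1.71 and 1.38, and only wild-type replicate 2 reached into the knockout range. The mean difference of 0.65 had a two-sided p = 0.0397 in an exact permutation test (adjusted p = 0.238 over 6 pairs; the smallest p the design allows is 0.00794). Tbx2 to Tbx3 differed by -0.41 (exact permutation p = 0.167, adjusted p = 0.5). For the other 4 pairs the exact permutation p ranged from 0.262 to 0.857.

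**Figure D4:**
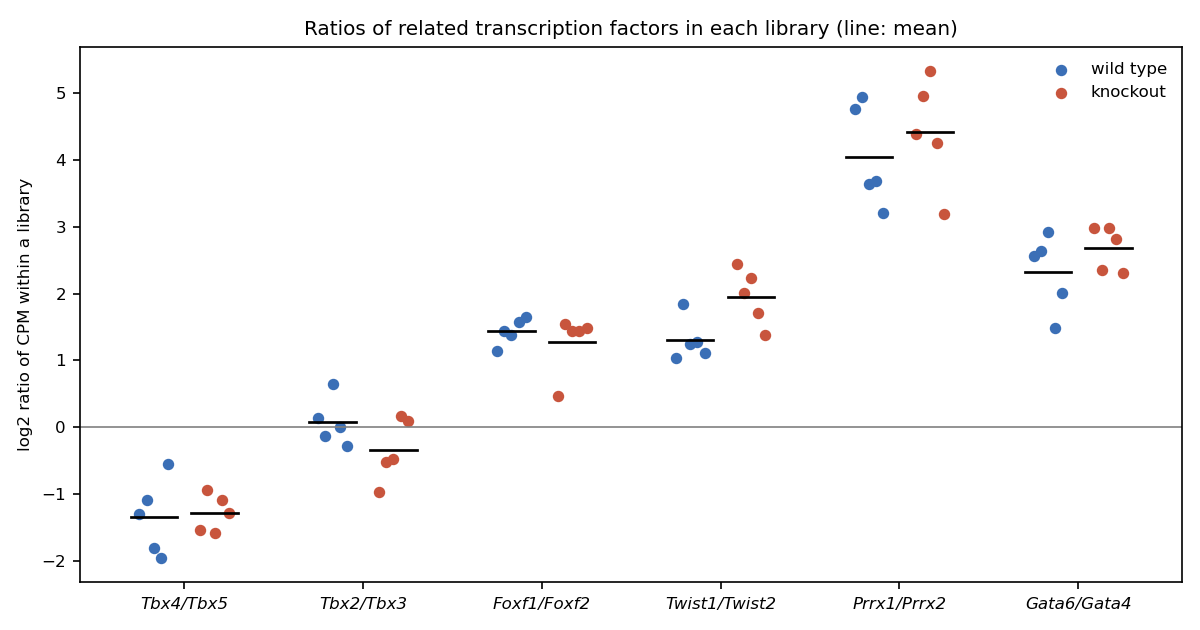
Log2 ratio of CPM between related transcription factors in each library (points), with the mean of each genotype as a line. The Twist1 to Twist2 ratio averages 2.46-fold in wild type and 3.87-fold in knockout, and the genotypes overlap for all 6 pairs.

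Among 16 tested paralogues and neighbours of the factors, 0 passed over all genes by edgeR. The log2 fold change was above 0 for 9 of them (48.4% of all genes) and below 0 for 7 (median 0.02). An unadjusted p under 0.05 was found for 4 of them (13.3% of all genes), 2 higher (7.19% of all genes) and 2 lower (6.10%). Tbx15, a T-box factor of limb and trunk mesenchyme, averaged 13.8 ± 2.04 CPM in the wild-type libraries, above all knockout values (10.2 ± 1.21 CPM; SD), and had a log2 fold change of -0.44 (edgeR adjusted p = 0.295). Gata3, better known in T cells and epithelium, had a value of -0.75 (edgeR adjusted p = 0.308). The forkhead genes Foxc1 and Foxc2, which act in mesenchyme and vessels, had values of 0.54 (edgeR adjusted p = 0.343) and 0.58 (0.349), the latter 0.36 without knockout replicate 1. Twist2 had -0.48 (0.417), Tbx3 0.27 (0.497), Prrx2 0.17 (0.796) and Gata4 -0.44 (0.645) by the same test.

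Other transcription factors of mesenchyme were mostly above 0 without a call. Of 28 tested, 23 had a log2 fold change above 0 (48.4% of all genes) and 5 below. The median was 0.32 beside -0.01 for all genes, and 0 passed by edgeR. An unadjusted p under 0.05 was found for 6 of them, all higher in knockout, against 7.19% of all genes that were higher at that level. Foxp1, a forkhead factor of many tissues, ranged from 101 to 130.4 CPM in wild type and, with no overlap, from 137 to 162 CPM in knockout (log2 fold change 0.30, edgeR adjusted p = 0.308). It was the 1 gene of the 28 without overlap, against 2.05% of all genes. Runx1, known from blood formation and also made by activated fibroblasts, ranged from 30.3 to 45.9 CPM in wild type and from 42.3 to 94.8 CPM in knockout (log2 fold change 0.71, edgeR adjusted p = 0.265). Mef2c, a factor of muscle and vessel development, had a value of 0.55 (edgeR adjusted p = 0.330). Sox9, a factor of cartilage and lung epithelium, had 1.09 (edgeR adjusted p = 0.349) with 31.5 CPM in knockout replicate 1 and at most 10.8 CPM in any other library, and 0.44 without that replicate. Smooth muscle and pericyte markers, 8 genes, summed to 3670 to 11928 CPM in wild type and 6827 to 12025 CPM in knockout, most of it Acta2. Of these 8 genes 6 were above 0 (48.4% of all genes) and 2 below, Des at -0.28 and Cspg4 at -0.16. Their median log2 difference was 0.31, and 0 passed by edgeR. An unadjusted p under 0.05 was found for 2, both higher (7.19% of all genes), Notch3 at 1.03 and Myh11 at 0.82. Fibroblast marker sums, which were mostly collagen, exceeded all wild-type sums in 4 of 5 knockouts. The part of either marker set in the values of the transcription factors was not tested.

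The helix-loop-helix partners of Twist1 did not pass. E proteins pair with Twist1 on DNA, and Id proteins sequester E proteins. Tcf12 averaged 63.5 ± 13.02 CPM among wild-type and 95.5 ± 27.5 CPM among knockout libraries (SD, n = 5 each; log2 difference 0.59, edgeR adjusted p = 0.343). It passed by edgeR without knockout replicate 5 (adjusted p = 0.0487), the library with its lowest value, whose omission raised the calls over all genes to 203. Tcf4 had a log2 difference of 0.36 (edgeR adjusted p = 0.355) and Tcf3 of 0.20 (0.371). Of 7 tested genes in this list 5 were above 0 (48.4% of all genes) and 2 below. The 2 below were Id1 at -0.58 and Id2 at -0.18, while Id3 was at 0.0045 and Id4 at 0.45. An unadjusted p under 0.05 was found for 3 (13.3% of all genes), the E protein genes Tcf12, Tcf4 and Tcf3, all higher (7.19% of all genes). Hand1 and Hand2, other factors of the same class, were not above the filter, with 0 and 182 reads in all.

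Signals that act with these factors in the lung included the growth factor Fgf10, which lies downstream of Tbx4 and Tbx5. Fgf10 had 43.3, 52.1, 15.6, 66.9 and 20.5 CPM in wild-type replicates 1 to 5. In knockout it had 18.8, 14.1, 21.8, 16.3 and 14.2 CPM. Wild-type replicates 1, 2 and 4 lay above the knockout range, and replicates 3 and 5 lay within it. For Fgf10 the log2 difference was -1.22 (SE 0.35, edgeR unadjusted p = 0.00458, adjusted p = 0.258), and it stayed between -1.43 and -0.96 when single libraries were left out. By DESeq2, which called 243 genes in all against 2 by edgeR, Fgf10 passed (adjusted p = 0.0408, log2 fold change -1.21). Tbx4 and Tbx5 themselves had log2 fold changes of 0.12 and 0.07. Fgf10 was highest in wild-type replicate 4, the library with the highest mesothelial sum, and second highest in wild-type replicate 2, with the lowest wild-type mesothelial sum (135 CPM). The part of mesothelial cells in the Fgf10 values was not tested. The Fgf10 log2 difference was -0.96 without wild-type replicate 4 (edgeR adjusted p = 0.387).

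Hedgehog pathway genes, which act upstream of Foxf1 and Foxf2, did not pass. Smo, the signal transducer, averaged 67.6 ± 11.9 CPM among wild-type and 93.01 ± 23.2 CPM among knockout libraries (SD; log2 difference 0.46, edgeR adjusted p = 0.353; n = 5 in each group). Ptch1, the receptor and also a target of the pathway, had 0.46 (edgeR adjusted p = 0.354), and the effector Gli2 had 0.73 (edgeR adjusted p = 0.354). The ligand Shh was at 0 reads in every library, and the target genes Gli1 and Hhip had 29 and 10 reads in all. Of 16 tested signalling genes 9 were above 0 (48.4% of all genes) and 7 below, with a median of 0.23. At an unadjusted p under 0.05 there were 4 of them (13.3% of all genes), 3 higher (7.19% of all genes) and 1 lower (6.10%), and 0 passed by edgeR.

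**Figure D5:**
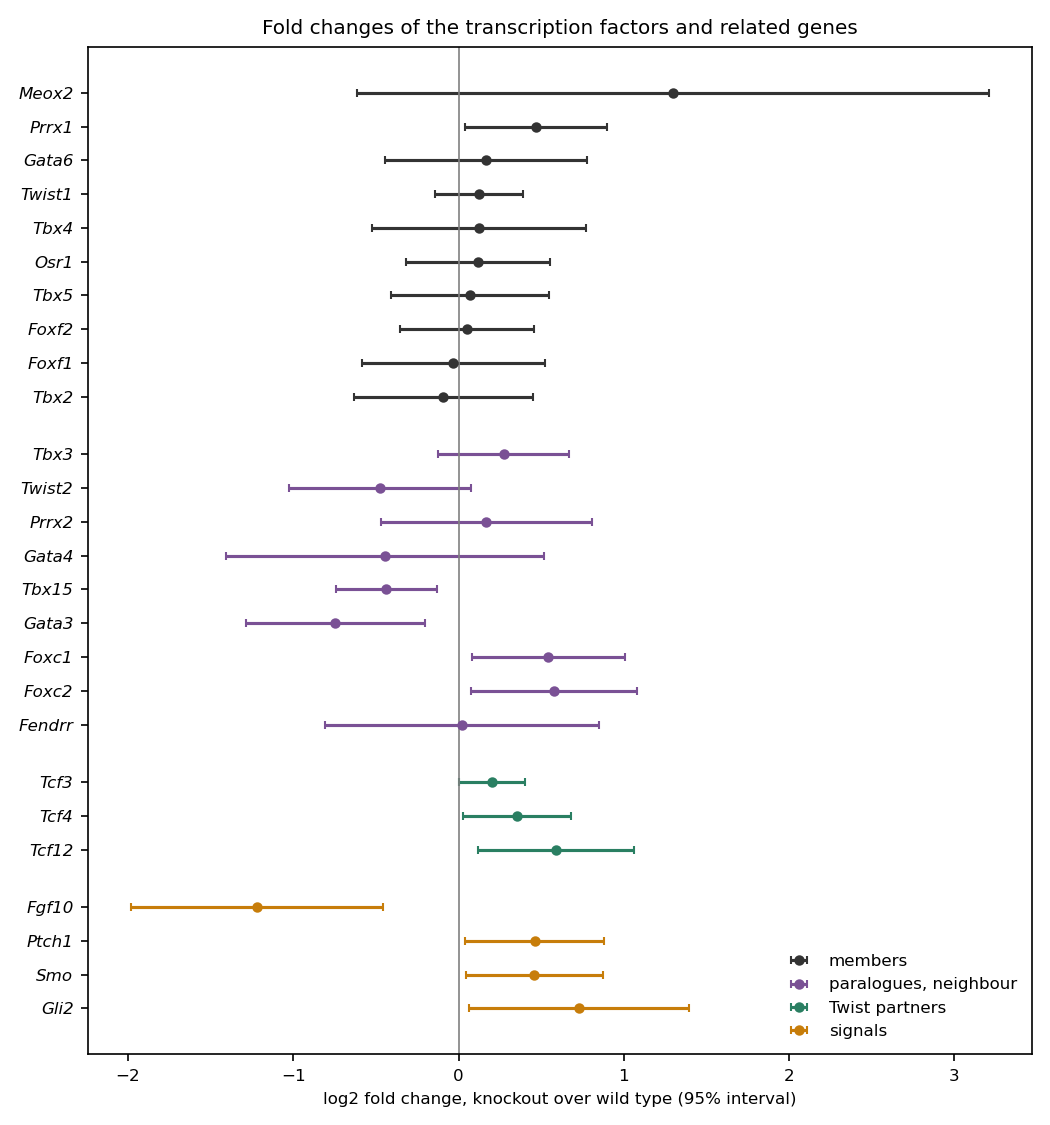
Log2 fold change of knockout over wild type with its 95% interval from edgeR for the 10 factors, related genes, Twist partners and signals. Prrx1 is the 1 factor whose interval excludes 0 (0.04 to 0.90), that of Meox2 runs from -0.61 to 3.21, and Fgf10 lies lowest at -1.22.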

How the data were processed

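RNA-seq of 10 libraries was deposited as raw counts for each Ensembl gene, beside coordinates and gene lengths. Per the submitters' processing notes, the build was mm10 and the tools included HTSeq 0.6.1, STAR 2.5 and DESeq2 2, with no roles stated. Strand setting and annotation release: not given in the sources used here. A name was missing from 0 deposited rows. Groups and replicate numbers came from the titles. Nothing more says that libraries came from separate animals, so p-values measure the spread between these samples. No 2 libraries agreed within sampling noise (lowest chi-square per degree of freedom 19.2).

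Genes were filtered with filterByExpr, which left 14360 genes, and tested with edgeR 4.0.16 (R 4.3.3), TMM factors, the quasi-likelihood F test and no block. Benjamini-Hochberg adjustment ran over all tested genes, with a threshold of 0.05. Standard errors are the absolute log2 fold change over the square root of F, and intervals use the test's degrees of freedom. CPM used TMM-scaled sizes, log2 CPM a prior count of 2, and TPM the deposited gene lengths. At 3 reads, the counting floor was 0.100 to 0.153 CPM. Ratios were tested by exact permutation (SciPy 1.17.1), correlations with 100000 permutations. Simulated counts served to test the edgeR step. DESeq2 1.42.0 and limma 3.58.1 (voom) were alternatives.

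The members and lists were chosen with earlier results of these data known. Named were the 10 members, Mrc2, both genes of each pair, up to 4 genes of smallest p in each list described, the 2 genes most correlated with each member, genes overlapping a member, and cell markers. Fendrr is a list member. It, Hand1, Hand2, Id1, Id2, Id3, Shh, Gli1, Hhip, Tcf21, Rspo2, Ebf1 and Ebf2 were singled out beyond that rule. Of 9 genes overlapping a member (Gm20388, Gm27530, Gm27516, Gm48617, 1700022H16Rik, 1010001N08Rik, Gm26523, Gm37644 and Gm20471), 1 passed the filter: 1010001N08Rik, which shares 60 bases with Gata6 on the other strand and had at most 68 reads in a library. The others had at most 16.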

Additional observations from a re-analysis of the deposited data

Results flagged for a closer look

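In 64 groups of 5 values, 7 held a library far from the other 4 by the gap to its nearest neighbour relative to the whole range. The rule flags about 1 in 20 groups by chance if groups are independent, which these were not. Ratios stood beside the genes they are made of, and several other genes were named for a small p in these data. The count is therefore a description. Knockout replicate 1 accounted for 5 of the 7, where the Foxf1 level and the Foxf1 to Foxf2 ratio share the same low Foxf1 value. It had the lowest Foxf1 level of its group (19.2 CPM), the highest Meox2 (8.77 CPM), the lowest log2 ratio of Foxf1 to Foxf2 (0.46), the highest Foxc2 (36.2 CPM) and the highest Sox9 (31.5 CPM). Wild-type replicate 2 held the highest log2 ratio of Twist1 to Twist2 (1.85) and the highest Ptch1 level (15.6 CPM) of its group. The Twist1 to Twist2 gap was barely beyond the limit (0.711 of the range against 0.71).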

How the results depend on the processing

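The number of members called was 0 under all 17 alternatives to the edgeR test described. The number of members with an unadjusted p under 0.05 was 0 to 1, and the number above 0 was 5 to 9, when single libraries were left out. Over all genes, DESeq2 called 243, limma-voom 1 and the replicate block 0, beside 2 by the edgeR test, and 1 to 203 were called with a library left out (203 without knockout replicate 5). Without single libraries the log2 fold change ranged from -0.20 to 0.075 for Tbx2, -0.0060 to 0.29 for Tbx4, -0.067 to 0.19 for Tbx5, -0.14 to 0.15 for Foxf1, -0.094 to 0.15 for Foxf2, -0.22 to 1.78 for Meox2, -0.023 to 0.23 for Osr1, -0.15 to 0.29 for Prrx2, -0.64 to 0.25 for Gata4 and -0.26 to 0.23 for Fendrr. Fendrr was also at -0.25 with limma-voom and -0.20 with the replicate block. The log2 ratio differences ranged from -0.10 to 0.25 for Tbx4 to Tbx5 and from -0.23 to 0.042 for Foxf1 to Foxf2. With the replicate block Mrc2 lost its call (-1.78, adjusted p = 0.0542); the cause was not tested. Same-numbered libraries deviated together in 2 of 5 pairs only (correlations -0.24 to 0.38), and 1 of 5 wild-type and 1 of 5 knockout libraries correlated best with its own number, so the numbers were not taken as pairs. The block changed no call among the members or ratios. Meox2, with as few as 4 reads in a library, is limited by depth.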

Other observations

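Knockout replicate 1 differed from the other libraries in further mesenchymal genes, which were chosen after their values were seen. Tcf21, a factor of lung lipofibroblast precursors, was at 5.996 CPM there, with 21.97 to 45.7 CPM in the other knockout libraries and 12.5 to 28.3 CPM in wild type. Rspo2, a secreted enhancer of Wnt signals, was at 16.5 CPM there and at most 3.53 CPM elsewhere. Ebf1 and Ebf2, factors of adventitial and fat-precursor mesenchyme, were at 39.3 and 22.5 CPM there, against at most 22.4 and 8.24 CPM elsewhere. Notch3, a receptor of mural cells, was at 72.5 CPM there and at most 34.6 CPM elsewhere. The smooth muscle gene Myh11 was at 706 CPM there and at most 416 CPM elsewhere, while Acta2, which made up most of the summed smooth muscle and pericyte markers, was at 6531 CPM, within the range of the other libraries.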
